A study of Mus musculus with 9 samples.

Results

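The mitochondrial respiratory chain is built from 5 multi-subunit complexes in the inner mitochondrial membrane. Its genes were taken as every gene with a probe of exactly 1 platform symbol that begins with Nduf, Uqcr, Cox4 to Cox8 or Atp5, or that is Sdha, Sdhb, Sdhc or Sdhd. This gave 61 genes, measured by 77 probes, of 7117 genes named on the array. They were 23 subunits and 4 assembly factors of complex I, 3 subunits of complex II, 5 of complex III, 10 of complex IV and 16 of complex V. Ndufb11 and Cox7b lie on the X chromosome and the other members on autosomes. Sdhc had no probe with 1 symbol, and the subunits encoded by mitochondrial DNA are outside the rule.

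Complexes I (NADH dehydrogenase) and II (succinate dehydrogenase) pass electrons to ubiquinone, complex III passes them to cytochrome c, and complex IV (cytochrome c oxidase) passes them to oxygen. Complexes I, III and IV pump protons, and complex V (ATP synthase) uses the proton gradient to make ATP. In the testis, spermatogonia and spermatocytes rely on different fuels, and spermatocytes and spermatids express testis isoforms of several metabolic proteins, among them the complex IV subunit Cox6b2. Spo11 makes the DNA double-strand breaks that start meiotic recombination, and in its absence spermatocytes fail to pair their chromosomes and are lost in meiotic prophase.

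The arrays were 2-colour cDNA arrays, each hybridised with total RNA of whole testis from 1 Spo11-/- and 1 wild-type sample. The groups were Spo11-/- against wild type at 15 days (4 arrays) and Spo11-/- against wild type at 12 days (5 arrays). The labels give no strain or allele beyond this. Knockout RNA carried Cy3 on all 4 arrays of 15 days and on replicates 2 and 3 of 12 days, and Cy5 on replicates 1, 4 and 5 of 12 days. Replicates are numbered in order of deposit, and the design text speaks of different mouse pairs of a litter. In whole testis, fewer cells of a type and less RNA per cell cannot be told apart.

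Which channel is on top of the deposited ratios is unknown. With the dyes as labelled, a value below 0 at 15 days means a higher level in knockout testes if Cy5 is divided by Cy3, and a lower level if Cy3 is divided by Cy5. The 15-day arrays correlated with each other across probes (r = 0.38 to 0.60) but below 0 with the 12-day arrays of the same dye orientation, at -0.38 to -0.33 for 12-day replicate 3 and -0.25 to -0.11 for 12-day replicate 2. With the 12-day arrays of the other orientation they gave -0.23 to 0.03. Among the 12-day arrays, r was -0.13 to 0.45 for pairs of the same orientation and 0.00 to 0.29 for pairs of opposite orientation. The 12-day arrays thus did not follow the dye orientation among themselves. As these correlations leave the direction unsettled, signs of 15-day values below are the deposited ones. Values of 12 days were turned to knockout over wild type with Cy5 taken as the numerator. All directions turn if the opposite reading holds. Each array gave a value for 72.1% to 91.3% of its probes, the SD over all probes was 0.31 to 0.47 at 15 days and 0.21 to 0.43 at 12 days, and signal over background is unknown.

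Markers of several cell types passed the test at 15 days, where 11.2% of all genes passed in either direction. Of 6 measured pachytene spermatocyte markers, 4 passed the test, all below 0 as deposited, and the list had a median of -1.07. Those passing were Slc2a3, Rsph1, Lyar and Ccnb1ip1, while Mybl1 (-0.12) and Ovol1 (-0.22) did not pass. The lists were chosen with earlier results of these data known, so these counts and medians are not independent of the data. The pachytene list had medians of -1.01, -1.19, -1.26 and -0.74 on replicates 1 to 4. The list median was thus nearest to 0 on replicate 4. Single markers differed, with Ccnb1ip1 nearest to 0 on replicate 2 (-0.41) and Mybl1 on replicate 1 (-0.04). Of 8 spermatogonial markers, 3 passed above 0 (median 0.35), and of 12 meiotic prophase markers 2 passed below 0 (median -0.13). None of 8 Sertoli cell markers passed (median 0.05). Of 5 endothelial and blood markers, 1 passed, Cdh5 (0.78), and the list had a median of 0.14. Of 7 Leydig cell markers, 1 passed, Nr5a1 (0.43), the median was 0.06 and 3 had means below 0. Of 7 peritubular markers, Col1a1 (0.41) passed above 0 and Lum (-0.57) below 0 (median 0.09). Of 4 macrophage markers, 1 passed, Lyz2 (-0.61), the median was -0.17 and 1 had a mean above 0. The part of the cell makeup in the results below was not tested.

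Promoter sequences are shown for 6 members on which the results turn: the most changed assembly factor, the called subunit of complex II with a gene starting beside it, 2 called subunits of complex I, and the testis and ubiquitous forms of a complex IV subunit. Each runs from 250 bases before to 50 bases after the RefSeq start site, 5′ to 3′ on the gene's strand, in assembly GRCm38.p6. Capitals mark matches, on either strand, to letters taken from the binding motifs of NRF1 (GCGC and TGCGC with 1 base of any kind between them), GABP (CCGGAAG, read as CTTCCGG on the other strand) and YY1 (AAGATGGC), factors known to bind promoters of respiratory chain genes.
Ndufaf3 (chr9:108567387-108567686, minus strand): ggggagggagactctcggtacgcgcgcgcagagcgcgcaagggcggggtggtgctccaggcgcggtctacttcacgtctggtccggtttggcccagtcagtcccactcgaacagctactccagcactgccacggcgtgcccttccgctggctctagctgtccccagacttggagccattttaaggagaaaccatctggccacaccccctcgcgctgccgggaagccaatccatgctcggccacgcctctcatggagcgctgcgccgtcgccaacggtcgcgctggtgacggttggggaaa
Sdhd (chr9:50603800-50604099, minus strand): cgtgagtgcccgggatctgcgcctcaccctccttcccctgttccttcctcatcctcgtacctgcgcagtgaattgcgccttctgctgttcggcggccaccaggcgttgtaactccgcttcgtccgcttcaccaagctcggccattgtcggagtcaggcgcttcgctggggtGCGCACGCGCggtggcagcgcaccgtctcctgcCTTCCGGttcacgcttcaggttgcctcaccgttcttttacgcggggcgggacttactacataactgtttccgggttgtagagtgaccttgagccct
Ndufs6 (chr13:73328433-73328732, minus strand): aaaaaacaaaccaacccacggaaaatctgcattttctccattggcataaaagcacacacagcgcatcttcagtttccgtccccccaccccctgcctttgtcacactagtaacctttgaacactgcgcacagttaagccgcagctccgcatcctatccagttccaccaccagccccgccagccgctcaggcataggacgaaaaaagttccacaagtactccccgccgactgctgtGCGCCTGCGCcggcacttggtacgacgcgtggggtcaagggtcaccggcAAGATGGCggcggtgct
Ndufb6 (chr4:40279372-40279671, minus strand): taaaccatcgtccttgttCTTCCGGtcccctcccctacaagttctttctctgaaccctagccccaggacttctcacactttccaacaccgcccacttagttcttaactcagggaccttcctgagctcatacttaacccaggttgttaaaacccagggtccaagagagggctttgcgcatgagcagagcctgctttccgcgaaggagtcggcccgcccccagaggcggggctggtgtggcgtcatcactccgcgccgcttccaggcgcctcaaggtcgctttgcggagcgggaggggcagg
Cox6b2 (chr7:4753045-4753344, minus strand): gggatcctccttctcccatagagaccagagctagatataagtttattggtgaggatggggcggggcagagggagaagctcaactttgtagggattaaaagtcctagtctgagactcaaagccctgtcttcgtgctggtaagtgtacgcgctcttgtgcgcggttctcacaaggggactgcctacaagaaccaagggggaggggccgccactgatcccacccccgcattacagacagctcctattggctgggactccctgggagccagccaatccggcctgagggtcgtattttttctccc
Cox6b1 (chr7:30626065-30626364, minus strand): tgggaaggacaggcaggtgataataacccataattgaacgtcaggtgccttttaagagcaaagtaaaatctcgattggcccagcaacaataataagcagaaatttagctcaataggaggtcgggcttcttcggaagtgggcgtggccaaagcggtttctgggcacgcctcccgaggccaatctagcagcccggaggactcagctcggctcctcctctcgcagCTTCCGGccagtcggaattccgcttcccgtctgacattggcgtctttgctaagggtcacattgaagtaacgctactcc

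A RefSeq promoter was matched for 51 of the 61 members. The NRF1 letters were found for 23.5% of these members, against 12.8% of all genes of the array with a promoter and 5.2% of all RefSeq genes. For the GABP letters the shares were 35.3% of members, 21.5% of array genes and 9.9% of all genes, and for the YY1 letters 13.7%, 5.9% and 3.2%. No member promoter held matches of 2 of these motifs that overlapped. Among the printed windows, that of Sdhd holds NRF1 and GABP letters, that of Ndufs6 NRF1 and YY1 letters, and those of Ndufb6 and Cox6b1 GABP letters, while the windows of Ndufaf3 and Cox6b2 hold none of the 3. A match describes the letters only.

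At 15 days the chain genes lay mostly below 0 as deposited, by small amounts, and 1 assembly factor lay far below the rest. Of 60 members tested (Ndufa7 had a single value), 47 (78.3%) had a mean below 0, against 53.7% of genes and 47.0% of all features. The median was -0.28, against -0.02 over all genes and 0.02 over all features. In limma's test of the 4 arrays against 0, adjusted over all 12198 features, 14 members passed at 0.05, all of them below 0. Knockout RNA carried Cy3 on all 4 arrays, so in every 15-day call a dye effect cannot be told apart from a knockout effect. The background was 7.2% of genes called below 0 and 4.04% called above 0. Of all features, 12.4% were called in either direction, 655 of them below 0 and 860 above 0. Among the 58 members with 4 values, 30 were below 0 on all 4 arrays and 0 were above 0 on all 4, against 23.1% and 14.4% of genes. Of the 14 called members, 4 differed by at least 1.5-fold and 1 by at least 2-fold. At an adjusted p of 0.01 with a 1.5-fold change, 1 member (Ndufaf3) was called, against a background of 1.85% of genes. The other 13 had fold changes from 1.323 to 1.566.

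**Figure D1:**
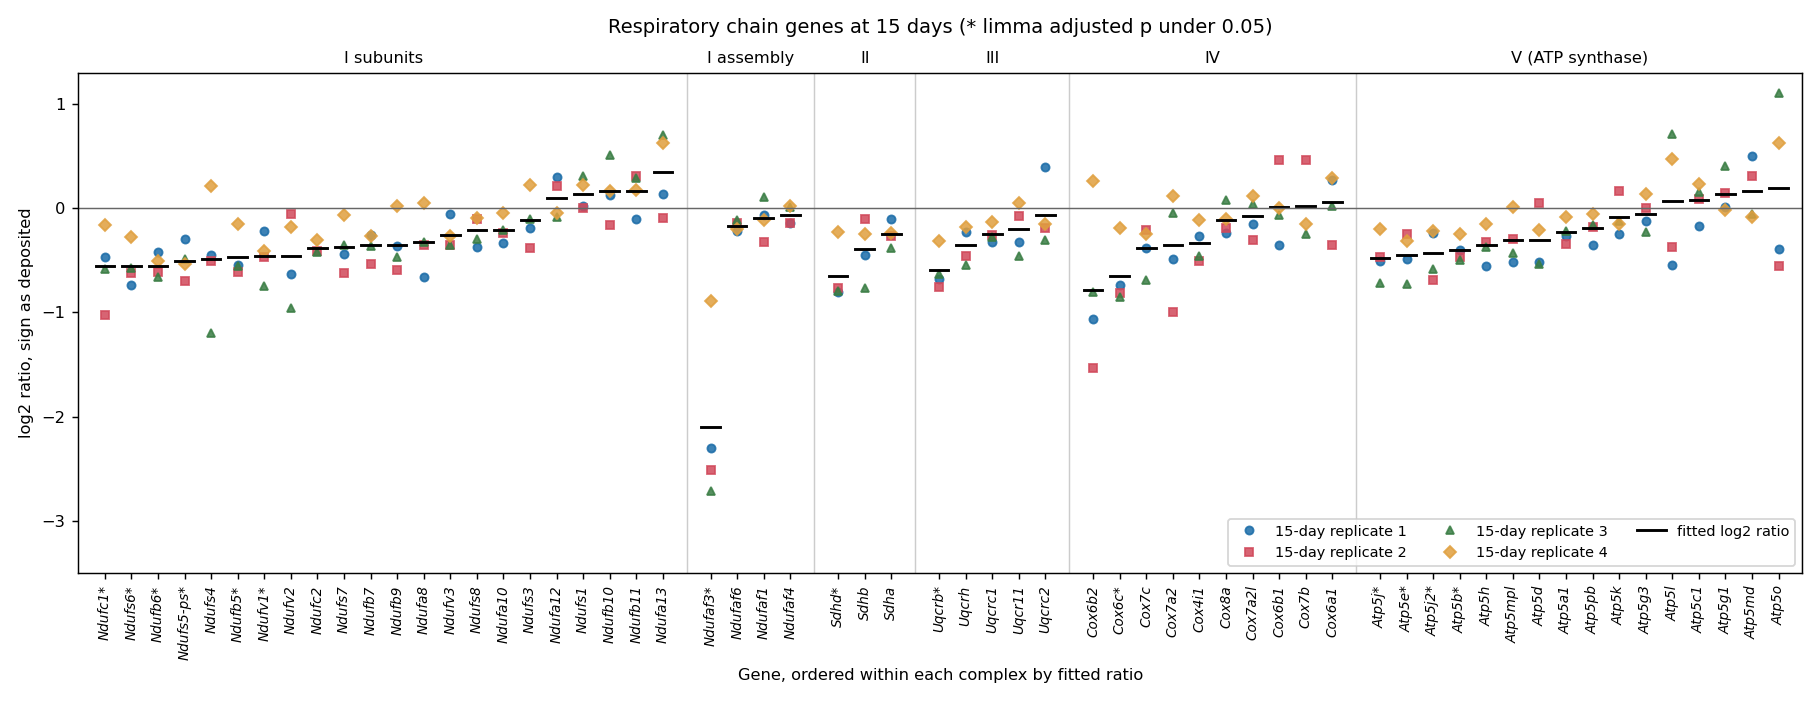
Log2 ratios (y axis, sign as deposited) of the 60 tested members at 15 days, 1 column per gene, grouped by complex, with a marker for each of the 4 arrays and a bar at the fitted ratio. Asterisks mark the 14 genes with a limma adjusted p under 0.05, all below 0, and Ndufaf3 stands alone near -2.

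The 4 arrays did not show the pattern equally. The median over members was -0.33, -0.32, -0.35 and -0.11 on replicates 1 to 4, against -0.04, -0.04, -0.05 and -0.01 over all genes. Replicate 4 was the array with the smallest spread of the 4 over all probes (SD 0.31). Of the 14 called members, 10 had their value closest to 0 on replicate 4, as did 28 of the 58 members with 4 values. The share of all genes closest to 0 there was not counted. With replicate 4 left out the count of called members was 16, and it was 6, 4 and 2 without replicates 1, 2 and 3. Over all features 1185 were called without replicate 4, and 640, 597 and 372 without replicates 1, 2 and 3, against 1515 with all arrays. Ndufaf3 and Ndufb6 were called in all 4 of these fits, Sdhd and Uqcrb in 3, Ndufs5-ps in 2, Atp5e in 0 and the other 8 in 1.

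**Figure D2:**
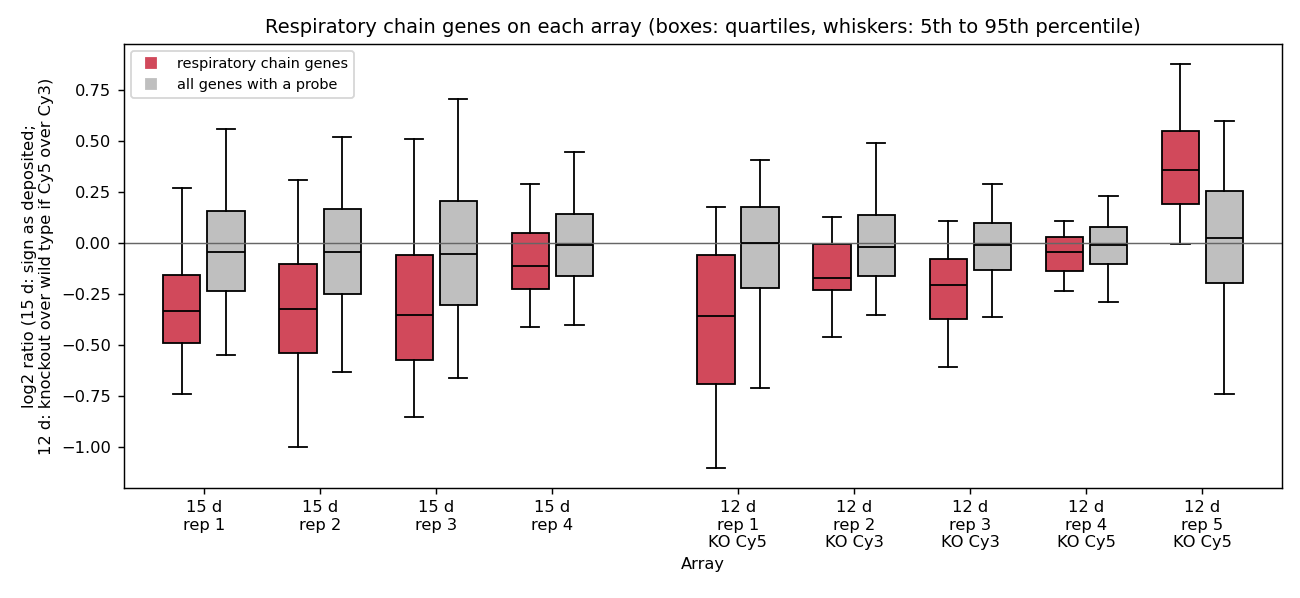
Log2 ratios (y axis) of the respiratory chain genes (red) and of all genes with a probe (grey) on each of the 9 arrays, 15 days on the left and 12 days on the right, with boxes for the quartiles and whiskers from the 5th to the 95th percentile. Member medians are -0.35 to -0.11 at 15 days, and run from -0.36 on replicate 1 to 0.36 on replicate 5 at 12 days.

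In complex I, 6 of 22 tested subunits were called and the median was -0.35. Core subunits, which carry the electron path, gave 1 call of 6 (median -0.29), and accessory subunits, which surround the core, gave 5 of 16 (median -0.35). Ndufb6, an accessory subunit of the membrane arm, had ratios of -0.42, -0.61, -0.66 and -0.51 on replicates 1 to 4, with a fitted log2 ratio of -0.55 (SE 0.10, limma adjusted p = 0.0123). These 4 arrays lay close together, and every leave-one-out fit called the gene. Ndufs6, an accessory subunit needed to complete the peripheral arm, had ratios of -0.74, -0.62, -0.57 and -0.28 (fitted -0.55, SE 0.11, limma adjusted p = 0.0172). Ndufc1, an accessory subunit of the membrane arm, had -0.47, -1.02, -0.58 and -0.16 (fitted -0.56, SE 0.14, limma adjusted p = 0.0327). In both, replicate 4 was the array nearest to 0.

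Ndufv1, the core flavoprotein that binds NADH, had ratios of -0.22, -0.47, -0.75 and -0.41 (fitted -0.46, SE 0.11, limma adjusted p = 0.0318). Ndufb5, an accessory subunit, had -0.55, -0.62, -0.55 and -0.16, with a fitted log2 ratio of -0.47 (SE 0.11, limma adjusted p = 0.0304), as the mean of a probe at -0.79 and a probe at -0.15. The means of its probes thus shared the sign and not the size, and on replicate 4 these probes had -0.51 and 0.20. The probe listed as Ndufs5-ps, a pseudogene of the accessory subunit Ndufs5, had -0.29, -0.70, -0.49 and -0.53 (fitted -0.50, SE 0.11, limma adjusted p = 0.0209), and a cDNA probe cannot tell its RNA from that of Ndufs5.

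The remaining 16 complex I subunits did not pass, and 11 of them had a mean below 0. The core subunits Ndufv2 (-0.45), Ndufs7 (-0.37), Ndufs8 (-0.21) and Ndufs3 (-0.11) lay below 0 and Ndufs1, the largest iron-sulfur subunit, at 0.14. Ndufa13, an accessory subunit also described as the cell death regulator GRIM-19, was the highest of the complex. Its ratios were 0.14, -0.09, 0.70 and 0.63 (fitted 0.35, SE 0.14, limma adjusted p = 0.137), so replicates 3 and 4 stood above replicates 1 and 2. With the median of the 100 nearest probes on each side subtracted, its fitted ratio was 0.12 (limma adjusted p = 0.517). Its start site lies near that of Tssk6, which is transcribed from the opposite strand and had no value of its own here. The X-linked Ndufb11 had -0.10, 0.31, 0.29 and 0.18, with a fitted ratio of 0.17 that did not pass.

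Of the 4 assembly factors of complex I, 1 was called. Ndufaf3, which acts early in the assembly of the complex together with Ndufaf4, had ratios of -2.30, -2.51, -2.72 and -0.89 on replicates 1 to 4. All 4 arrays were below 0, with replicate 4 nearer to 0 than the others. The fitted log2 ratio was -2.11 (SE 0.25, limma adjusted p = 0.00248), and no other member passed a 2-fold difference and the test. Its partner Ndufaf4 had -0.14, -0.14, 0.01 and 0.02 (fitted -0.06, limma adjusted p = 0.708). Ndufaf1 and Ndufaf6 had fitted ratios of -0.10 and -0.17 and did not pass. Without Ndufaf3 the median of the members was -0.26 and 13 of 59 were called. Leaving out 1 called gene lowers the count by 1 and can move the median only slightly, so these values do not test the group. The gene was measured by 1 probe.

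In complex II all 3 measured subunits had means below 0, and 1 was called. Sdhd, a membrane anchor of the complex and the small subunit of its cytochrome b, had ratios of -0.80, -0.77, -0.79 and -0.23 (fitted -0.65, SE 0.12, limma adjusted p = 0.0143). Replicates 1 to 3 lay within 0.03 of each other and replicate 4 was nearer to 0. Sdhb, the iron-sulfur subunit, had a fitted ratio of -0.39 (limma adjusted p = 0.0691), and Sdha, the flavoprotein that oxidises succinate, -0.25 (limma adjusted p = 0.128).

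Sdhd starts 52 bases from Timm8b, a small chaperone of the mitochondrial intermembrane space, which is transcribed from the opposite strand. Timm8b had ratios of -0.51, -0.81, -0.83 and -0.47 (fitted -0.65, SE 0.11, limma adjusted p = 0.00921). Both genes were thus called on the same side of 0 by like amounts, and their promoter windows overlap, so that the NRF1 and GABP letters printed for Sdhd are within both. Opposite-strand neighbours with a start site within 1000 bases were found for 17 members, and in 8 of these pairs both genes were tested. Timm8b was the 1 neighbour called. The neighbours Kin, Kctd2, Wdr77, Rbm10, Kbtbd4, Ccdc127 and Lrrc41 (beside Atp5c1, Atp5h, Atp5pb, Ndufb11, Ndufs3, Sdha and Uqcrh) did not pass, nor did these 7 members.

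**Figure D3:**
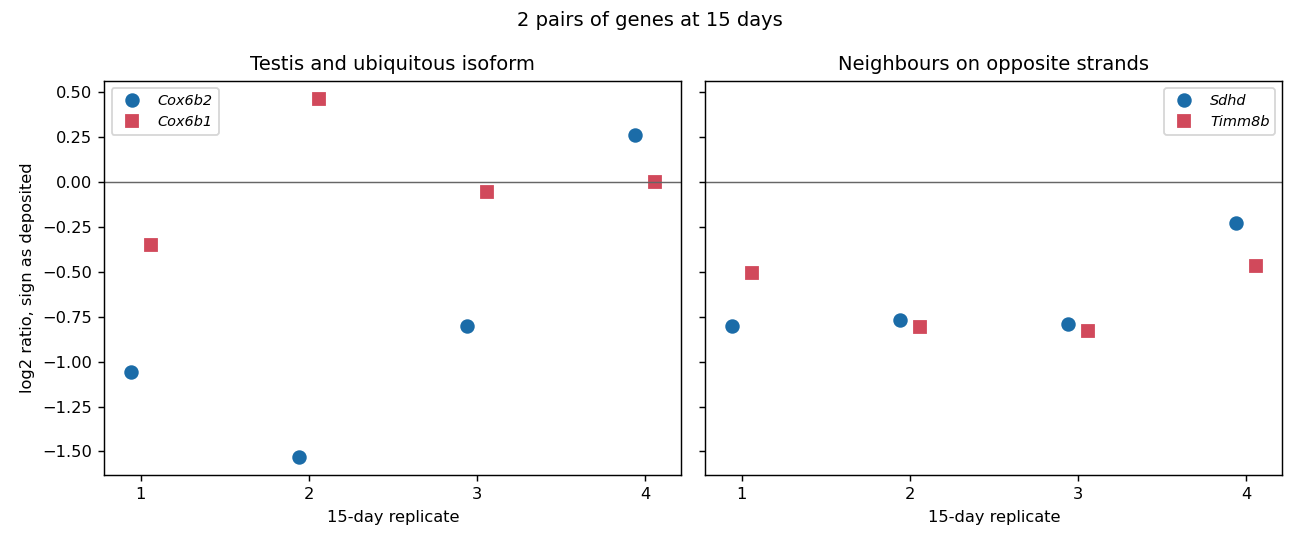
Log2 ratios (y axis, sign as deposited) on the 4 arrays of 15 days (x axis) for Cox6b2 and Cox6b1 (left) and for Sdhd and Timm8b (right). Cox6b2 lies at -0.80 or below on replicates 1 to 3 and at 0.26 on replicate 4, while Sdhd and Timm8b lie below 0 on all 4.

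In complex III 1 of 5 subunits was called, and the median was -0.25. Uqcrb, a small subunit at the ubiquinone-binding end of the complex, had ratios of -0.68, -0.76, -0.63 and -0.31 (fitted -0.59, SE 0.11, limma adjusted p = 0.0133), and its 2 probes had means of -0.69 and -0.50. All 4 arrays and both probes lay below 0. Uqcrh, the hinge protein beside cytochrome c1, had a fitted ratio of -0.35 (limma adjusted p = 0.0601). The core subunits Uqcrc1 (-0.25) and Uqcrc2 (-0.06) and the small subunit Uqcr11 (-0.20) did not pass, and the 2 probes of Uqcrc1 had means of -0.50 and 0.01.

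Complex IV had 1 call among 10 subunits, near the 7.2% of genes called below 0, and a median of -0.22. Cox6c, a nuclear-encoded subunit, had ratios of -0.74, -0.81, -0.85 and -0.19 (fitted -0.65, SE 0.13, limma adjusted p = 0.0170). Again replicates 1 to 3 lay together and replicate 4 nearer to 0. Cox7c (-0.38, limma adjusted p = 0.0553) and Cox4i1 (-0.33, limma adjusted p = 0.0731) were below 0 without passing.

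The testis isoform Cox6b2 and the ubiquitous isoform Cox6b1 occupy the same place on complex IV, facing cytochrome c. Cox6b2 had ratios of -1.06, -1.53, -0.80 and 0.26 (fitted -0.78, SE 0.23, limma adjusted p = 0.0552). It had the second lowest mean of all members, did not pass, and was called without replicate 4 (-1.13, limma adjusted p = 0.0049). Cox6b1 had -0.35, 0.46, -0.06 and 0.00 (fitted 0.01, limma adjusted p = 0.961). The isoforms lay apart on replicates 1 to 3 and not on replicate 4, and the difference between them was not tested. No other testis isoform of the chain had a value here. The ubiquitous forms Cox6a1 (0.06), Cox7b (0.02), Cox8a (-0.11) and Cox7a2 (-0.35) did not pass, nor did Cox7a2l (-0.07), a factor of supercomplex assembly.

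Complex V had 4 calls among 16 subunits and a median of -0.21. The F1 part, which makes ATP and is counted here with its central stalk, gave 2 calls of 5 (median -0.30). The membrane part with the peripheral stalk gave 2 of 11 (median -0.09). Atp5b, the catalytic beta subunit, had ratios of -0.40, -0.47, -0.50 and -0.25 (fitted -0.40, SE 0.10, limma adjusted p = 0.0335). It was the called member with the smallest change, and its 3 probes had means between -0.47 and -0.36. Atp5e, the epsilon subunit of the central stalk, had -0.49, -0.25, -0.73 and -0.31 (fitted -0.45, SE 0.11, limma adjusted p = 0.0351) and lost its call whichever array was left out.

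Atp5j, coupling factor 6 of the peripheral stalk, had ratios of -0.51, -0.47, -0.72 and -0.20 (fitted -0.48, SE 0.11, limma adjusted p = 0.0292). Atp5j2, the f subunit of the membrane part, had -0.24, -0.69, -0.58 and -0.22 (fitted -0.43, SE 0.12, limma adjusted p = 0.0419). Both were below 0 on every array. Atp5a1 (alpha, -0.23), Atp5d (delta, -0.30) and Atp5c1 (gamma, 0.08) of F1 did not pass. The 2 measured genes for the c-ring subunit, which encode the same mature protein, had fitted ratios of 0.14 (Atp5g1) and -0.05 (Atp5g3) and did not pass.

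Atp5o, the stalk subunit that confers oligomycin sensitivity, was the highest of the complex and the most divided among arrays. Its ratios were -0.39, -0.55, 1.11 and 0.63 (fitted 0.20, SE 0.24, limma adjusted p = 0.613). Atp5l, the g subunit of the membrane part, had the same split, at -0.54, -0.37, 0.71 and 0.48 (fitted 0.07, limma adjusted p = 0.847). Both genes were below 0 on replicates 1 and 2 and above 0 on replicates 3 and 4. Their 3 probes stood at places 3764, 3864 and 3881 of 16128 in ID order. The median of the 100 nearest probes on each side of the Atp5o probe was -0.14, -0.14, 0.44 and 0.19 on these arrays, a split in the same direction. With each probe's local median subtracted, Atp5o had -0.26, -0.41, 0.67 and 0.44 on replicates 1 to 4. The first Atp5l probe had -0.58, -0.36, 0.29 and 0.23 and the second -0.36, -0.24, 0.18 and 0.37. The split thus remained in sign on all 3 probes, and neither gene passed (fitted 0.11 for Atp5o and -0.06 for Atp5l).

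Other mitochondrial genes at 15 days give the surroundings of these values. Of 14 measured assembly factors of the other complexes and of general factors, 3 were called, all below 0: Bcs1l (-0.76, limma adjusted p = 0.00738), which inserts the iron-sulfur protein into complex III, Cox16 (-0.64, 0.0130), which assists complex IV, and Chchd4 (-0.43, 0.0273), of the disulfide relay of the intermembrane space. The list had a median of -0.17. Cyc1, cytochrome c1 of complex III, had a fitted ratio of -0.33 (limma adjusted p = 0.0686) and Cycs, somatic cytochrome c, 0.01.

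Of 20 protein import genes, 2 were called below 0, Timm8b and Tomm7 (-0.83, limma adjusted p = 0.00497), a small subunit of the outer membrane translocase, and the median was -0.15. This share is near the 7.2% of genes called below 0. Of 20 genes of the citric acid cycle and of pyruvate dehydrogenase, 3 were called below 0 and 3 above, with a median of -0.03. Those below were Idh3b (-0.57) and the pyruvate dehydrogenase components Dlat (-0.42) and Pdhx (-0.36). Those above were Pcx (0.50), which makes oxaloacetate from pyruvate, and the kinases Pdk1 (0.65) and Pdk3 (0.60), which switch pyruvate dehydrogenase off. Calls on this list thus lay on both sides, where those of the chain genes lay on 1.

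Among 11 carriers and pores, 1 was called below 0 (Slc25a20, the carnitine carrier, -0.42) and 1 above (Slc25a13, an aspartate and glutamate carrier, 0.62). Among 13 genes of mitochondrial DNA upkeep and of the transcription factors of mitochondrial biogenesis, 0 were called (median -0.03). Of these, 8 had a mean below 0 and 5 above. Nrf1 had 0.33, 0.23, 0.60 and 0.06 on the 4 arrays (fitted 0.31, limma adjusted p = 0.106), on the side opposite to most chain genes. Gabpb2 had -0.49, -0.45, -0.26 and -0.03 (fitted -0.31, limma adjusted p = 0.0990), on the same side as most chain genes. Tfam, the transcription factor of mitochondrial DNA, had a fitted ratio of 0.11.

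At 12 days no chain gene was called. Of 59 members tested (Atp5a1 and Cox7b lacked values), 0 passed limma's test at an adjusted p of 0.05. The background was 0.0%, with 0 of 10075 features called. At an unadjusted p under 0.05, 1 member passed, against 1.92% of genes and 2.67% of features. The median knockout over wild-type log2 ratio was -0.11 for members and -0.01 over all genes, and 49 of 59 members had an estimate below 0, against 3367 of 6237 genes. The median of the dye term was 0.09 over members and 0.01 over genes.

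The 5 arrays of 12 days differed in where these genes lay. The median over members was -0.36, -0.17, -0.21, -0.04 and 0.36 on replicates 1 to 5. Replicates 1 to 3 lay below 0, replicate 4 near 0 and replicate 5 above 0, where 56 of 60 members had a positive ratio. Of the 58 members with 5 values, 51 were highest on replicate 5 and 36 lowest on replicate 1, and 24 were not above 0 on replicates 1 to 4 and above 0 on replicate 5. Replicates 1 and 5 also had the widest spread over all probes, with an SD of 0.43 each, against 0.34, 0.22 and 0.21 on replicates 2 to 4. The shares of all genes with these extremes were not counted. A single member was below 0 on all 5 arrays and 0 were above 0 on all 5. Over all genes the median was between -0.02 and 0.03 on these arrays, as the centring of each array on its median sets it near 0. With replicate 5 left out the median was -0.18, and with replicate 1 left out it was -0.01.

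**Figure D4:**
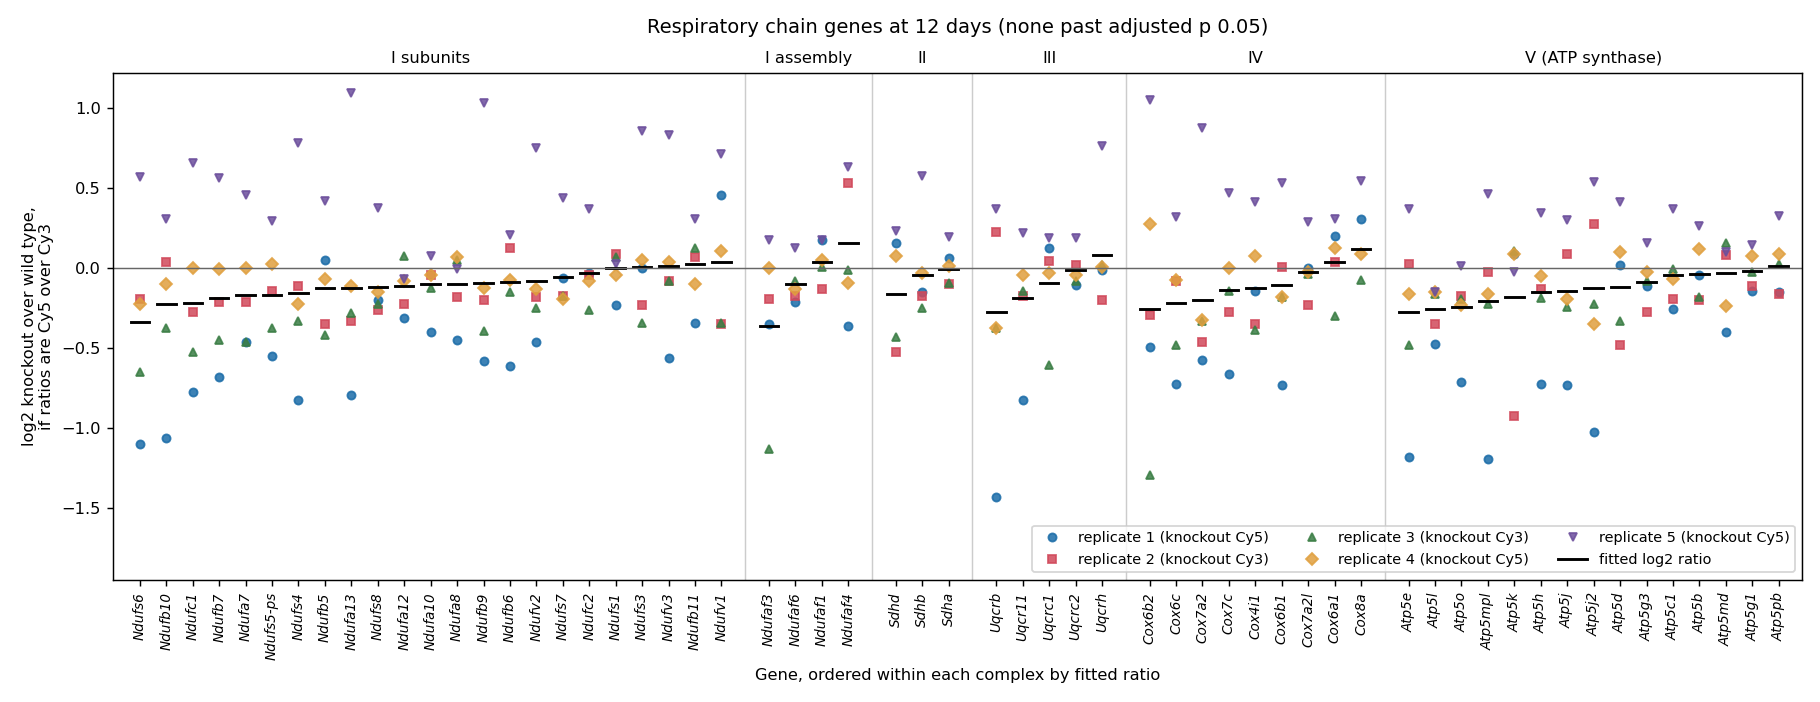
Log2 knockout over wild-type ratios (y axis, Cy5 taken as the numerator) of the 59 tested members at 12 days, 1 column per gene, grouped by complex, with a marker per array and a bar at the fitted ratio. Replicate 5, which with replicate 1 had the widest spread over all probes, is the highest array in 51 of the 58 genes with 5 values. No gene passed the test.

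Atp5l was the member of smallest p at 12 days and the 1 member below 0 on all 5 arrays. Its ratios were -0.47, -0.35, -0.16, -0.15 and -0.15 on replicates 1 to 5 (fitted -0.26, SE 0.09, unadjusted p = 0.0305 in limma). Ndufaf3 came next, with -0.35, -0.19, -1.13, 0.00 and 0.17 (fitted -0.36, SE 0.16, unadjusted p = 0.0585 in limma), and its lowest value by far was on replicate 3. Sdhd had 0.16, -0.52, -0.43, 0.08 and 0.23 (fitted -0.16, SE 0.08). Its sign followed the dye orientation, below 0 on the arrays with knockout in Cy3 and above 0 on the arrays with knockout in Cy5.

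Cox6b2 had ratios of -0.49, -0.29, -1.29, 0.28 and 1.05 at 12 days, the widest spread of the members named here. Uqcrb had -1.43, 0.23, -0.38, -0.37 and 0.37. Neither passed. Within the 3 largest groups, complex I subunits lay between -0.34 (Ndufs6) and 0.04 (Ndufv1), complex IV between -0.26 (Cox6b2) and 0.12 (Cox8a), and complex V between -0.27 (Atp5e) and 0.01 (Atp5pb).

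The difference between the ages depended on how the 15-day arrays are read. With all arrays read as Cy5 over Cy3, 3 of 58 members were called and all were above 0 (higher knockout over wild-type ratio at 15 than at 12 days), against 1.69% of genes called above 0 and 2.41% in either direction. The median of the members was 0.45, against 0.04 over all genes. With the sign of the 15-day arrays turned, 0 of 58 members and 0 of 9851 features were called in limma (background 0.0%), 2 members passed an unadjusted p of 0.05 (6.01% of genes did), and the median was -0.07. This estimate sets the mean of the 15-day arrays against 12-day replicates 2 and 3, and the other 12-day arrays enter only its error.

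Under the Cy5 over Cy3 reading of all arrays the called members were Ndufaf3, Sdhd and Ndufb5. This reading is named the label reading here, though the labels do not give the ratio's direction. Ndufaf3 differed by 2.77 (SE 0.44, limma adjusted p = 0.0222), Sdhd by 1.12 (SE 0.19, limma adjusted p = 0.0243) and Ndufb5 by 0.85 (SE 0.19, limma adjusted p = 0.0473). Under the turned reading their differences were -1.45, -0.17 and -0.09, with limma adjusted p between 0.737 and 0.968. Ndufaf3 thus had a difference of over 1 in size under either reading, in opposite directions, and a call under 1 of them. Leaving out 15-day replicate 1, 2 or 3 or 12-day replicate 3 removed all 3 calls, and calls over all features were then 26, 35, 5 and 13, against 246 with all arrays. Leaving out 12-day replicate 2 left 1 member called (51 features). Without 12-day replicate 1 there were 6 members (375 features), and without replicate 5 there were 10 (576 features).

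**Figure D5:**
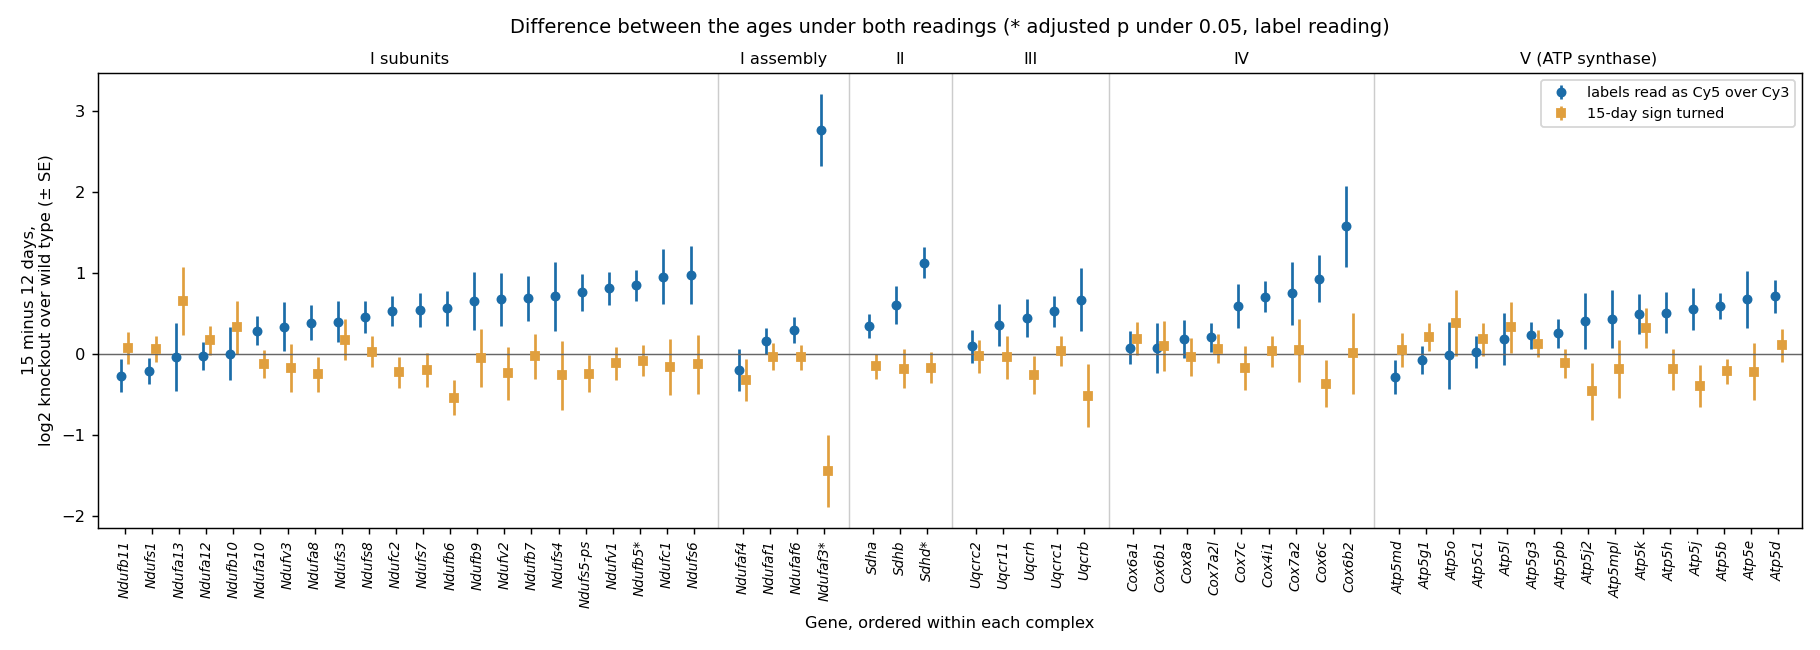
Difference of the log2 knockout over wild-type ratio, 15 minus 12 days (y axis, ± SE), for 58 members grouped by complex, with circles for the label reading and squares for the 15-day sign turned. The circles lie mostly above 0 (median 0.45) and the squares about 0 (median -0.07), and asterisks mark the 3 genes called under the label reading.

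As deposited, 36 of 57 members had all their 15-day ratios below both 12-day ratios of the same dye orientation, against 22.7% of genes, and 1 member had all of them above, against 14.7%. Ndufaf3 had -2.72 to -0.89 at 15 days, against 0.19 and 1.13 on 12-day replicates 2 and 3 as deposited. Sdhd had -0.80 to -0.23 at 15 days, against 0.52 and 0.43. The chain genes thus took part in the opposition between the arrays of the ages that leaves the direction unsettled.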

How the data were processed

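Testis RNA of a knockout and a wild-type sample was paired on each of 9 arrays, 4 of 15 days and 5 of 12 days. The deposited values are log ratios and were taken as log2. According to the design text, the authors scanned with a GenePix 4000A, extracted and flagged spots with GenePix 3.0, centred arrays on their median and used SAM at a 1% false discovery rate with a 1.5-fold minimum. No source used here names the log base, the background correction or the ratio's direction.

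Of 16128 probes, 9604 had exactly 1 gene in the platform annotation, 213 several and 6311 none. Symbols were updated through RefSeq (GRCm38.p6), which matched 98.9% of probes with 1 gene. Probes of a gene were averaged, and probes without exactly 1 gene stayed as features of their own. Several probes measured 14 members, and in 3 of these their means at 15 days had opposite signs (Atp5c1, Atp5md and Uqcrc1).

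limma 3.58.1 (R 4.3.3) gave the tests, with lmFit, eBayes, two-sided p-values and Benjamini-Hochberg adjustment over all features at 0.05. The 15-day fit took features with at least 3 values and held no dye term, since its arrays share 1 dye orientation. The 12-day fit took at least 4 values with both dye orientations and held a dye term, and the age difference came from all 9 arrays with a shared dye term. Each array counted as 1 replicate. The design text describes 4 replicates from different mouse pairs, but 5 arrays are labelled 12 days. Whether any of these 5 shared RNA is not stated, and p-values measure the spread between arrays. No probe checks the knockout of Spo11. Called members were named, with the highest and lowest of each complex, isoform pairs, and called genes of the other lists. Genes outside this rule (Tfam, Nrf1, Gabpb2, Mybl1, Ovol1 and members between the extremes among them) were named after their values were seen. The members and lists were chosen with earlier results of these data known. Alternatives covered missing values, centring, scaling, quantile normalization, local medians, probe medians and single probes, robust eBayes, a stricter threshold, dye terms, array number range, direction and each array left out. The fits were checked on simulated arrays.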

Additional observations from a re-analysis of the deposited data

Results flagged for a closer look

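On 15-day replicate 4, 4 values lay apart from those of the other 3 arrays. The median over all members was -0.11 there, Sdhd had -0.23, Cox6c -0.19 and Ndufb5 -0.16, each far enough from the rest by Dixon's test at 95%. At 12 days, Sdhb on replicate 5 stood apart at 0.58. In all, 25 sets of 4 values and 18 sets of 5 were examined, and chance alone flags about 1 in 20.

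Under the label reading, the knockout over wild-type log2 ratio of Ndufaf3 was higher by 2.77 at 15 than at 12 days, that of Sdhd by 1.12 and that of Ndufb5 by 0.85 (limma adjusted p = 0.0222, 0.0243 and 0.0473). None was called with the 15-day sign turned.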

How the results depend on the processing

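The count of 14 members called at 15 days (of 1515 features called) was 22 with local medians subtracted (1883 features). It was 1 at an adjusted p of 0.01 with 1.5-fold (242 features). In the joint fit of both ages with a dye term it was 7 with all arrays read as Cy5 over Cy3 (770 features). That fit gave 0 with 15-day signs turned (17 features). With an array left out of the 15-day fit the count was 2 to 16. The median at 15 days was -0.16 in the joint fit with the sign turned and 0.28 with the sign of the 15-day arrays turned. At 12 days the median was 0.0796 with ratios not turned by the dyes and 0.11 with the sign turned, and the count of 0 held under every alternative run. The 3 calls of the age difference (246 features) became 7 with arrays scaled to 1 median absolute deviation (532), 11 with quantile normalization (743), 6 with local medians (493), 1 without a dye term (247), 0 at the stricter threshold (4) and 0 to 10 with an array left out. Apart from the construction of turned signs and stricter thresholds, the cause was not tested.

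Among single genes at 15 days, Atp5g3 reversed to 0.13 with local medians and 0.0393 in the joint fit with the sign turned, Cox6a1 to -0.11 and Ndufaf4 to 0.0368 in the joint fit under the label reading, and Cox6b1 to -0.0075 in that with the sign turned. With an array left out the ranges crossed 0 for Atp5g3 (-0.12 to 0.0067), Atp5o (-0.10 to 0.45), Cox6a1 (-0.02 to 0.19), Cox6b1 (-0.14 to 0.13) and Uqcrc2 (-0.21 to 0.02), and at 12 days for Atp5pb (-0.0475 to 0.072), Ndufv1 (-0.03 to 0.12) and Sdhb (-0.15 to 0.0315). Ratios of 12 days not turned by the dyes reversed Cox4i1 (0.22), Cox6b2 (0.48), Cox6c (0.0186), Ndufaf3 (0.23), Ndufaf6 (0.008), Ndufb5 (0.23), Ndufs6 (0.0176), Sdhb (0.16) and Sdhd (0.28), and Ndufv1 was -0.0394 with scaling and -0.0717 with quantile normalization. Counts over the settings run on single genes left out single probes and the plain turns of the 15-day and 12-day signs. Such a turn reverses every value of its age. At 15 days the values of the named genes kept direction and call in 278 cases. They lost the call in 69, gained it in 2 and reversed in 11. At 12 days 16 of them reversed, and for the age difference 20 lost the call. No paired analysis was possible because replicate numbers follow the order of deposit and pair no array of 15 days with one of 12 days. Each ratio already compares a knockout and a wild-type sample on 1 array. Members by RefSeq symbol were the same 61, and none of Cox4nb, Atp5s and Atp5sl was a member. No intensities were used here, so a minimum of values stood in for a filter on dim spots.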

Other observations

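A probe annotated to both Cox5b and its pseudogene Cox5b-ps was left out by the rule of 1 symbol. It had ratios of -0.83, -0.75, 0.24 and -0.18 at 15 days as deposited. At 12 days it had -0.89, 0.25, 0.33, -0.11 and -0.03 as deposited. Of 2 probes annotated to both Pcp4l1 and Sdhc, a membrane anchor of complex II, 1 had -0.31, -0.07, -0.46 and -0.22 at 15 days. The other had 0.54, 0.08 and 0.28 on replicates 2 to 4. These probes differed in sign, and which gene each measures is not given.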
